A study of Mus musculus with 45 samples.

Results

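The 10 genes examined here belong to the cell's alarm system for RNA and DNA in the cytosol and were chosen by name, in all 3 count tables of the series: Ddx58, Ifih1, Dhx58, Mavs, Trim25, Zbp1, Cgas, Tmem173, Tbk1 and Ikbke. They were set by name rather than by a threshold on a value, with earlier results of these data known. All 10 genes were listed in each table, among 55450 gene IDs for microglia from cultured brain slices, 47643 for microglia from adult mice and 43411 for brain tissue.

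All samples came from C57BL/6 mice. Brain slices of neonatal mice were cultured for 2 weeks and left in medium alone (9 samples), TNF at 50 ng/mL (11 samples) or GM-CSF at 20 ng/mL (9 samples) for 24 h, after which microglia were sorted as CD11b high and CD45 intermediate cells, with several slices pooled per sample. Adult mice aged 10 to 15 weeks received an intraperitoneal injection of LPS at 1 mg/kg or of PBS 24 h before microglia were sorted as CD11b positive, CD45 intermediate cells (4 samples each). For brain tissue, 4 samples came from mice injected with LPS at 1 mg/kg 24 h earlier and 4 from untreated mice. Mice of both brain groups were also aged 10 to 15 weeks. As these controls were not injected, LPS and the injection itself cannot be told apart in brain tissue. The titles of the adult microglia and brain samples carry the label WT. TNF is an inflammatory cytokine, GM-CSF a growth factor of myeloid cells, and LPS a bacterial cell wall component that is sensed by Toll-like receptor 4.

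Ddx58, Ifih1 and Dhx58 encode the RIG-I-like receptors RIG-I, MDA5 and LGP2, which bind viral or misplaced double-stranded RNA. TRIM25 is a ubiquitin ligase that aids RIG-I, and MAVS is the adaptor on the mitochondrial membrane to which RIG-I and MDA5 bind. ZBP1 senses Z-form nucleic acid and can start necroptosis. cGAS binds DNA and makes the messenger cyclic GMP-AMP, which activates STING, the product of Tmem173. Both MAVS and STING engage TBK1 and its relative IKK-epsilon (Ikbke), kinases that phosphorylate IRF3 and IRF7 and thereby start transcription of type I interferon. Interferon in turn acts through a transcription complex that includes STAT2 and IRF9 on many genes, several of these sensors among them, and microglia are known as a major STING-expressing cell of the brain.

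The genes are spread over the mouse genome (GRCm38): Ddx58 at chr4:40203773-40239828, Ifih1 at chr2:62595798-62646255, Dhx58 at chr11:100694884-100704271, Trim25 at chr11:88999376-89020293, Mavs at chr2:131234063-131248025, Zbp1 at chr2:173206612-173218923, Cgas at chr9:78430526-78443237, Tbk1 at chr10:121546455-121586787 and Ikbke at chr1:131254343-131279606; the position of Tmem173 is left out here. RefSeq promoter windows of GRCm38.p6, 300 bases each with 250 bases before the start site, were read for 7 of the 10 genes. No window was held for Dhx58 and Zbp1, and Tmem173 was not searched. The core of the interferon-stimulated response element, the site bound by that complex, was searched on both strands as GAAANNGAAA and occurred in 3.44% of the 32851 windows in that table. Among the 7 windows it was found in Ddx58 and Ifih1, in both cases just after the start site, at bases 3 to 12 (on the opposite strand) and 33 to 42. These sites are shown in the gene's direction with the match in capitals. Ddx58 and Ifih1 are receptors whose RNA changed with all 4 treatments in the main test, though not under every setting run. Dhx58 and Zbp1, for which no window was held, also changed with all 4 treatments. Trim25 and Ikbke, which changed with some treatments, had no match. Whether the motif bears on the response to any treatment was not tested.
Ddx58, chr4:40239804-40239833, minus strand: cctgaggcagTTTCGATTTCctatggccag
Ifih1, chr2:62646206-62646233, minus strand: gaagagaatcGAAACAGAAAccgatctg
The interferon gamma activated sequence TTCNNNGAA (8.30% of all windows) and the kappaB motif (4.505% of all windows) were in none of the 7 windows, which says only that these letters are not there.

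The upstream sequences of the related kinase genes Tbk1 and Ikbke are shown because the former was nearly level across treatments whereas the latter changed several-fold with TNF and with LPS in adult microglia, with each CpG dinucleotide in capitals.
Tbk1, chr10:121586795-121587044, minus strand: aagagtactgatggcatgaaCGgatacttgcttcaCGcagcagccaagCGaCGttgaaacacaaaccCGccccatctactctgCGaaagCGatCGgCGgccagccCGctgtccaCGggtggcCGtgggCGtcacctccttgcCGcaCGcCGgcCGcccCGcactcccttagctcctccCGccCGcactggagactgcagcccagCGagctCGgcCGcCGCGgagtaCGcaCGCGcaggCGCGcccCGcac
Ikbke, chr1:131279607-131279813, minus strand: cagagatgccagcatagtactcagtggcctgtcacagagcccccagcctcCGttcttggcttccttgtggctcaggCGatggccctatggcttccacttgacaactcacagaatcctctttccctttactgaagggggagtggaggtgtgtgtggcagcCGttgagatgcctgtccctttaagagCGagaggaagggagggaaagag
The whole window of Tbk1 held 37 CpG dinucleotides and 69.0% G and C, that of Ikbke 4 CpG dinucleotides and 54.0% G and C. The median over all windows was 7 CpG dinucleotides and 52.7%, and the other 5 windows held 14 to 19 CpG dinucleotides. Those 5 belong to called and uncalled genes alike, with Ddx58 at 15, Ifih1 at 14, Mavs at 19, Trim25 at 18 and Cgas at 16. Whether CpG content bears on the response to any treatment was not tested.

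Total counts were 5973364 to 9165485 per slice library, 11391577 to 14216034 per adult microglia library and 8199881 to 10368603 per brain library. Exons of Dhx58, Cgas and Ikbke overlap genes on the opposite strand, and whether counting used strand is not given in the sources used here. The overlapping genes averaged 0.88 CPM or less in slices and at most 3.63 CPM (Gm8093, a pseudogene overlapping Cgas) in adult microglia. Levels are given as CPM, a depth-adjusted unit, with library sizes scaled by the trimmed mean of M values. The 6 microglia markers together (P2ry12, Tmem119, Cx3cr1, Csf1r, Sall1 and Siglech) reached 8826 to 12597.5 CPM in medium slices and 36547.5 to 40566 CPM in PBS microglia, against 201 to 231 CPM in untreated brain tissue. The 5 markers of border macrophages summed to 288 to 862 CPM over all slice libraries. Library 2 of the LPS group in adult microglia stood apart: it was the lowest of the 4 in Ddx58, Ifih1, Dhx58, Mavs, Trim25, Zbp1, Cgas and Ikbke and the highest in Tmem173. The sensor genes in adult microglia are therefore given with and without that library.

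Among the control groups, Tmem173 had the highest level per length in both kinds of microglia and Tbk1 in brain tissue. Per kilobase of exon, Tmem173 stood at 58.1 ± 9.66 CPM (SD, n = 9) in medium slices, ahead of Mavs at 23.3 ± 2.26 and Tbk1 at 18.6 ± 2.76, whose ranges overlapped with each other but not with that of Tmem173. In PBS microglia it stood at 246 ± 14.9 CPM per kilobase (SD, n = 4), with Mavs at 31.2 ± 0.84 and Tbk1 at 29.1 ± 0.94. In untreated brain tissue the order differed, with Tbk1 at 12.5 ± 0.34, Mavs at 2.86 ± 0.15, Trim25 at 1.54 ± 0.18 and Tmem173 at 1.18 ± 0.12 CPM per kilobase (SD, n = 4), and the ranges of these 4 genes did not overlap. At the bottom of the order were Ifih1, Ddx58 and Zbp1 in medium slices, at 2.64 ± 0.69, 2.66 ± 0.50 and 2.68 ± 1.14 CPM per kilobase, with overlapping ranges. In PBS microglia Zbp1 at 1.02 ± 0.56 and Ikbke at 0.025 ± 0.0067 CPM per kilobase were lowest, each below the whole range of the gene ranked next above it. Ikbke was listed at 0 in all 8 brain libraries, and so was the macrophage marker Mrc1. The brain table holds estimated counts, and whether these zeros reflect low RNA or the estimation was not tested. Where the length of the longest coding transcript replaced merged exons, Mavs and Tbk1 exchanged places in PBS microglia and the leading gene of each control group stayed the same, while in brain tissue Ddx58 moved ahead of Trim25 and Tmem173. The 3 tables were made and scaled separately, so their levels are set side by side without a test.

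**Figure D1:**
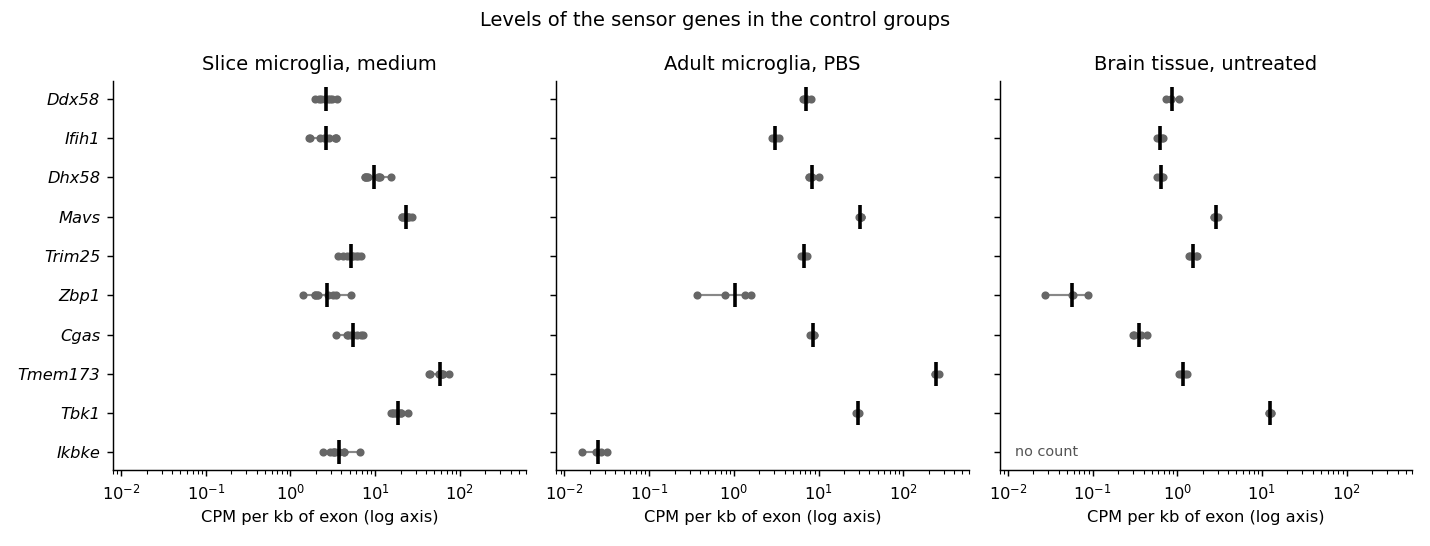
Levels of the 10 sensor genes in the 3 control groups, as CPM per kilobase of exon on a log axis; points are libraries, black ticks group means and grey lines the range. Tmem173 lies far to the right in both kinds of microglia, Tbk1 leads in brain tissue, and Ikbke falls to 0.025 CPM per kilobase in PBS microglia.

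TNF against medium asked how microglia in slices respond to an inflammatory cytokine. TNF raised 6 of the 10 sensor genes and lowered 1. The 3 RNA receptors, Trim25, Zbp1 and Ikbke rose between 2.06-fold and 15.6-fold, while Tmem173 fell. A gene is called here at a Benjamini-Hochberg adjusted p under 0.05 and a fold over 1.5 in edgeR's quasi-likelihood test, by which 9.1% of the 11313 genes tested were higher and 11.7% lower with TNF. The median log2 fold change was 1.53 over the 10 sensor genes and -0.03 over all genes tested.

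Ddx58 ranged from 13.8 CPM (median 18.1) to 25.3 CPM in medium and from 90.2 CPM (median 124) to 218 CPM with TNF. Its log2 fold change was 2.86 ± 0.22 (SE; 7.28-fold, adjusted p = 1.24e-12). Ifih1 was at 13.6 to 28.3 CPM (median 21.4) in medium and at 74.4 to 159 CPM (median 94.9) with TNF, a log2 fold change of 2.33 ± 0.19 (adjusted p = 1.48e-12). Dhx58, whose product LGP2 lacks the signalling domain of the other receptors, went from 24.8 to 50.6 CPM (median 27.1) in medium to 95.9 to 209 CPM (median 124) with TNF, with a log2 fold change of 2.01 ± 0.15 (adjusted p = 1.49e-13). For each of the 3 receptors every TNF library lay above every medium library. The share of all genes whose groups do not overlap was not counted, here or in the other comparisons.

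Zbp1, the sensor of Z-form nucleic acid, changed most: 4.92 to 18.1 CPM (median 7.39) in medium against 94.6 to 230.5 CPM (median 147) with TNF. This was a log2 fold change of 3.97 ± 0.22 (15.6-fold, adjusted p = 1.18e-16), and the groups did not overlap. It passed from the eighth place per length among the 10 genes in medium to the highest mean with TNF, 41.9 ± 11.2 CPM per kilobase (SD, n = 11), where its range overlapped that of Dhx58 at 39.3 ± 9.92.

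Trim25, the ligase at RIG-I, was at 20.9 to 39.3 CPM (median 31.0) in medium and at 46.9 to 85.7 CPM (median 56.1) with TNF, without overlap, and its log2 fold change was 1.04 ± 0.14 (adjusted p = 2.12e-07). Mavs, the adaptor downstream, was at 68.8 to 92.1 CPM (median 76.7) in medium and 46.7 to 81.0 CPM (median 63.3) with TNF, and 7 of the 11 TNF libraries lay below all medium libraries. Its log2 difference of -0.30 ± 0.08 had an adjusted p of 0.0038 but stayed within the fold limit.

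On the DNA side, Tmem173 went from 119.9 to 204 CPM (median 164) in medium to 71.7 to 131 CPM (median 95.0) with TNF. It fell by 0.73 on the log2 scale (SE 0.10, 1.66-fold, adjusted p = 2.04e-07), and 10 of the 11 TNF libraries lay below all medium libraries. Cgas was at 14.2 to 29.6 CPM (median 22.7) in medium and 27.7 to 40.8 CPM (median 33.1) with TNF. Its log2 difference of 0.56 ± 0.12 (1.47-fold, adjusted p = 0.00021) lay just under the fold limit, and 8 of the 11 TNF libraries were above all medium libraries.

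The kinases differed from each other. Ikbke was at 22.1 to 59.0 CPM (median 30.5) in medium and 94.8 to 193 CPM (median 148) with TNF, without overlap, a log2 fold change of 2.14 ± 0.15 (4.41-fold, adjusted p = 6.63e-14). Tbk1 was at 60.8 to 95.7 CPM (median 69.4) in medium and 71.2 to 109 CPM (median 85.1) with TNF. The log2 difference of Tbk1 was 0.29 ± 0.09 (95% interval 0.12 to 0.47, adjusted p = 0.0059), which is under the fold limit.

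Libraries with the title codes 1A and 1B and those with 2A and 2B, analysed apart, gave log2 fold changes of 2.68 and 3.05 for Ddx58, 4.27 and 3.81 for Zbp1, 2.25 and 2.08 for Ikbke, and -0.70 and -0.72 for Tmem173. The same 7 genes were called in both subsets, and Cgas also in the latter, at 0.61 (adjusted p = 0.024). The microglia markers moved as well, from 8826 to 12597.5 CPM in medium to 4874 to 6751 CPM with TNF, with none of the 6 at 0, and the summed markers of monocytes and neutrophils reached 114 CPM in a TNF library (Ly6g at 0 in all 11), against 14 CPM at most in medium. The part of these shifts in the sensor genes was not tested, and fewer cells of a type and less RNA per cell cannot be told apart in bulk samples.

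**Figure D2:**
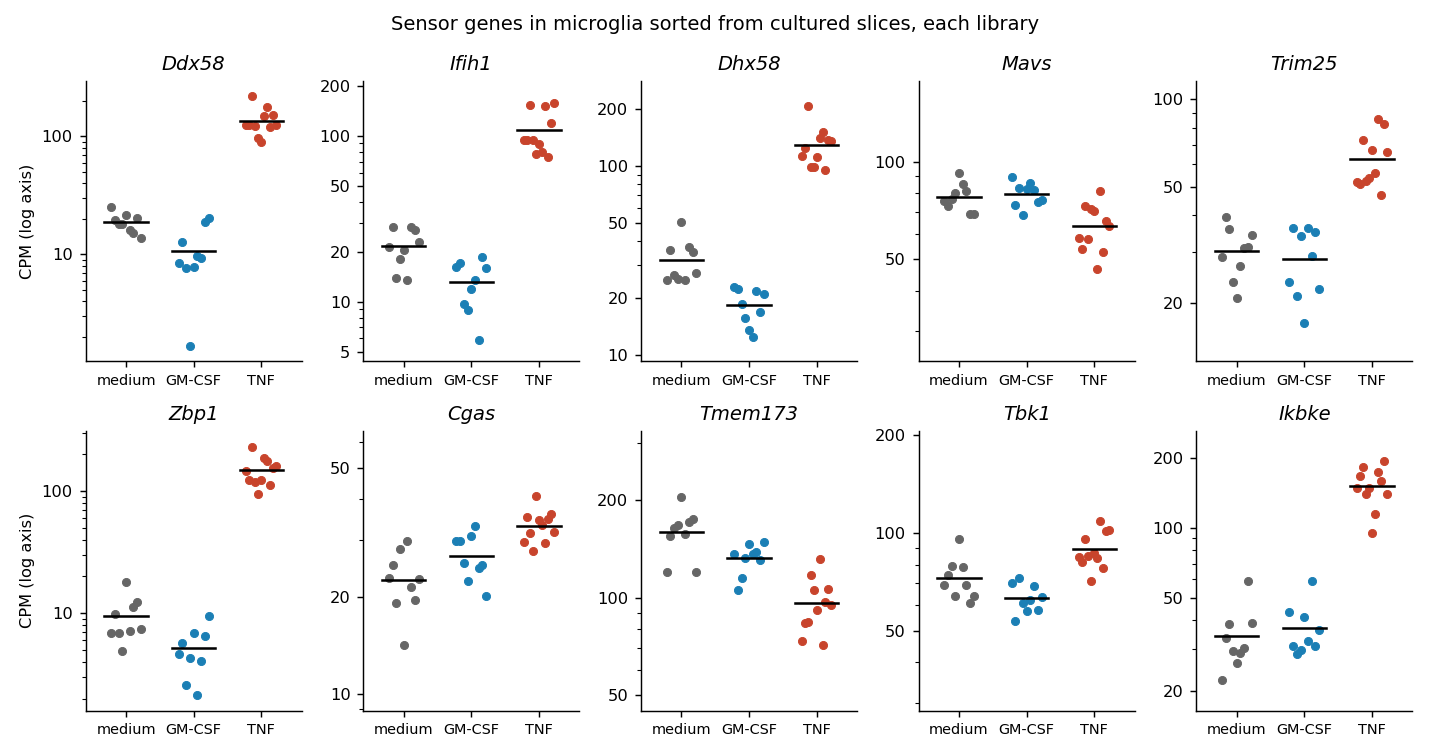
CPM of the 10 sensor genes on log axes in each library of slice microglia in medium (grey), GM-CSF (blue) and TNF (red), with black lines at group means. The TNF libraries lie above all others in Ddx58, Ifih1, Dhx58, Trim25, Zbp1 and Ikbke, and mostly below the medium libraries in Tmem173.

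The wider pathway was read from 71 other genes in 8 lists, of which 61 were tested in slices; 19 rose and 2 fell with TNF. The genes named from each list are those called with the smallest adjusted p. Of the 6 tested feedback inhibitors 5 rose, among them Isg15, a ubiquitin-like modifier, at a log2 fold change of 4.42 ± 0.19 and Usp18, which removes it, at 4.33 ± 0.21. Of the 6 genes of the interferon receptor and its transcription complex 3 rose, among them Stat2 at 2.30 ± 0.14 and Irf9 at 0.77 ± 0.09. Among the 11 kinase scaffolds and transcription factors 3 rose, with Irf7 at 4.49 ± 0.23 and Tank, a TBK1 scaffold, at 1.31 ± 0.14 among them. In the list of 12 further sensors and cofactors 4 rose and 1 fell, among them Ddx60 at 2.68 ± 0.27, the endosomal RNA receptor gene Tlr3 at 2.16 ± 0.20 and the helicase gene Dhx9 at -0.83 ± 0.15. Of the 5 partners of ZBP1 in cell death only Mlkl, which permeabilises the membrane in necroptosis, was called, at 3.22 ± 0.42. Samhd1 at 1.72 ± 0.12 and Adar at 1.61 ± 0.14 were the 2 called among 7 genes that act on nucleic acids, their building blocks or second messengers. Of 14 ligases and adaptors at MAVS and STING Traf6 rose by 0.63 ± 0.13 and Nlrx1 fell by 0.59 (SE 0.16) on the log2 scale. The 8 type I interferon ligand genes were below the count filter in all 3 tables. Ifnb1 had 9 counts over the 11 TNF libraries, 3 over the 9 medium libraries and 3 over the 9 GM-CSF libraries.

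GM-CSF against medium gave the opposite picture for the RNA receptors. All 3 receptor genes and Zbp1 fell, by 1.64-fold to 1.83-fold, and none of the 10 genes was called higher. Over all 11313 genes, 4.84% were called higher and 5.96% lower. For the 0 genes called higher, edgeR gave 1 gene above medium at an unadjusted p under 0.05 (Cgas), and neither DESeq2 nor limma-voom called one.

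Ddx58 was at 1.68 to 20.4 CPM (median 9.33) with GM-CSF against the 13.8 to 25.3 CPM of medium, and 7 of the 9 GM-CSF libraries lay below all medium libraries. It fell by 0.81 on the log2 scale (SE 0.23, adjusted p = 0.0093). The lowest library had 11 counts of Ddx58, where the other 8 had 59 to 140, and without it the log2 fold change was -0.67 (adjusted p = 0.0084). Ifih1 was at 5.91 to 18.7 CPM (median 13.6) and fell by 0.72 (SE 0.20, adjusted p = 0.0056), with 5 of 9 libraries below all medium libraries. Dhx58 was at 12.5 to 23.0 CPM (median 18.7) and fell by 0.80 (SE 0.15, adjusted p = 0.00015). It was the only gene of the 10 whose GM-CSF and medium libraries did not overlap, and the share of all genes without overlap was not counted.

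Zbp1 was at 2.15 to 9.46 CPM (median 4.66) with GM-CSF and fell by 0.87 on the log2 scale (SE 0.24, adjusted p = 0.0056), although limma-voom did not call it (adjusted p = 0.10). The adaptor and kinase genes were near their medium levels. Mavs was at 68.6 to 89.3 CPM (log2 difference 0.03 ± 0.09, 95% interval -0.15 to 0.21), and Ikbke at 28.6 to 59.1 CPM (0.12 ± 0.16, 95% interval -0.20 to 0.43). Trim25 was at 17.1 to 36.2 CPM (-0.10 ± 0.15, 95% interval -0.40 to 0.21) and Tbk1 at 53.7 to 72.7 CPM (-0.21 ± 0.09, adjusted p = 0.091). Tmem173 at 105.7 to 149 CPM (-0.27 ± 0.10, adjusted p = 0.053) and Cgas at 20.1 to 32.9 CPM (0.25 ± 0.12, adjusted p = 0.14) were not called either.

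Within the subsets of title codes the GM-CSF differences kept their sign but not every call. In codes 1A and 1B only Ddx58 was called, at -1.38 (adjusted p = 0.016), with Ifih1 at -0.64, Dhx58 at -0.50 and Zbp1 at -0.74 (adjusted p = 0.091, 0.13 and 0.11). In codes 2A and 2B Dhx58 at -1.01 (adjusted p = 0.0016) and Zbp1 at -0.94 (adjusted p = 0.047) were called, with Ddx58 at -0.39 (adjusted p = 0.33) and Ifih1 at -0.76 (adjusted p = 0.084). The summed microglia markers stood at 6109 to 7617 CPM with GM-CSF, below the medium libraries, with none at 0. Summed monocyte and neutrophil markers had a median of 9.33 CPM with GM-CSF and 2.50 CPM in medium (Ly6g and Plac8 at 0 in both), astrocyte markers 41.0 and 61.7 CPM, and oligodendrocyte markers 132 and 185 CPM, and the ranges of each of these 3 lists overlapped between the groups. The part of the markers in these differences was not tested.

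Of the 61 tested pathway genes 1 rose and 10 fell with GM-CSF. Of 6 feedback inhibitors 4 fell, among them Usp18 at -1.17 ± 0.22 and Tnfaip3, an inhibitor of NF-kappaB, at -0.75 ± 0.13. Stat2 at -0.78 ± 0.15 fell, and of the 11 scaffolds and factors 3 did, with Irf7 at -1.22 ± 0.24 and Nfkb1 at -0.82 ± 0.14. Ddx60 at -1.08 ± 0.29 and Rnf135, a ligase for RIG-I, at -0.69 ± 0.14 also fell. Ripk3, the kinase through which ZBP1 starts necroptosis, was the gene that rose, at 0.70 ± 0.12.

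TNF set directly against GM-CSF gave 6 sensor genes higher and 0 lower, where 8.25% of all genes tested were higher and 7.96% lower. The differences were log2 4.84 ± 0.24 for Zbp1, 3.67 ± 0.24 for Ddx58, 3.04 ± 0.20 for Ifih1, 2.80 ± 0.16 for Dhx58, 2.03 ± 0.15 for Ikbke and 1.14 ± 0.14 for Trim25. No TNF library overlapped a GM-CSF library in these 6 genes, and the share of all genes without overlap was not counted. At an unadjusted p under 0.05 edgeR placed 2 genes lower, Mavs at -0.33 ± 0.08 and Tmem173 at -0.46 ± 0.10, whose adjusted p of 0.0022 and 0.0004 came with folds under 1.5, and DESeq2 and limma-voom called none lower. Higher with TNF than with GM-CSF, but also under 1.5-fold, were Tbk1 at 0.50 ± 0.09 (edgeR adjusted p = 1.61e-05) and Cgas at 0.31 ± 0.12 (edgeR adjusted p = 0.041). With total counts in place of scaled library sizes the median of all genes moved from -0.02 to -0.19, and Tmem173 was then called lower at -0.63. Of the 61 pathway genes 22 were higher and 2 lower, with Irf7 at 5.71 ± 0.25, Usp18 at 5.50 ± 0.23 and Isg15 at 5.43 ± 0.20 among the former and Dhx9 at -0.84 ± 0.15 and Enpp1, which degrades cyclic GMP-AMP, at -0.59 ± 0.13 the latter. This comparison shares its samples with both comparisons against medium and is no separate evidence for either.

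LPS against PBS in adult microglia asked how microglia respond in the living animal. LPS raised 5 of the 10 sensor genes (the 3 RNA receptors, Zbp1 and Ikbke) and lowered 0. Ikbke and Zbp1 moved most, while Tmem173 and Tbk1 stayed close to their PBS levels. Of 12987 genes tested, 14.4% were higher and 13% lower. At an unadjusted p under 0.05 edgeR placed 8 of the 10 higher and 0 lower, and neither DESeq2 nor limma-voom called one lower. All genes were not counted at that unadjusted threshold. Without LPS library 2, 6 of the 10 were higher and 0 lower, beside 15.7% and 14.8% of all genes tested. With all libraries and no fold limit, 3466 genes were called higher and 3237 lower at an adjusted p under 0.05 in edgeR. Overlap of the libraries is described below for single genes, and the share of all genes without overlap was not counted.

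Ddx58 measured 57.6, 51.2, 47.2 and 46.6 CPM in the PBS libraries and 104, 44.2, 84.4 and 120.2 CPM in the LPS libraries. Of the LPS libraries 3 were above all PBS libraries and library 2 was below all of them. The log2 fold change was 0.80 ± 0.28 (adjusted p = 0.045), and 1.03 ± 0.11 (adjusted p = 1.19e-05) without library 2; the call was lost when any of the other 7 libraries was left out (adjusted p 0.063 to 0.11). Ifih1 measured 28.1, 25.7, 23.2 and 24.2 CPM with PBS and 55.5, 23.2, 46.1 and 58.8 CPM with LPS. Its library 2 fell within the PBS range, and its log2 fold change was 0.86 ± 0.26 (adjusted p = 0.021), or 1.08 ± 0.10 (adjusted p = 1.16e-06) without that library. Leaving out LPS library 1 or 4 or PBS library 3 ended the call of Ifih1 (adjusted p 0.053, 0.057 and 0.055). Dhx58 measured 27.2, 33.1, 25.3 and 25.2 CPM with PBS and 109.6, 38.2, 87.3 and 109 CPM with LPS, so that the groups did not overlap. It rose by 1.64 ± 0.32 on the log2 scale (adjusted p = 0.0040) and by 1.88 ± 0.11 without library 2.

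Zbp1 measured 4.74, 5.68, 1.29 and 2.74 CPM with PBS and 91.2, 9.85, 63.1 and 86.9 CPM with LPS. All LPS libraries were above all PBS libraries, although library 2 reached only 9.85 CPM where the next lowest had 63.1. The log2 fold change was 4.10 ± 0.77 (adjusted p = 0.0035) and 4.46 ± 0.35 (adjusted p = 3.34e-05) without library 2.

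Ikbke was almost absent with PBS, at 3, 2, 3 and 4 counts (0.22, 0.14, 0.24 and 0.29 CPM), and had 346, 66, 224 and 338 counts (25.2, 5.65, 17.2 and 24.9 CPM) with LPS. The groups did not overlap. The ratio of the summed CPM was 84.5, with a 95% counting interval of 48.1 to 164, and 102 (57.9 to 197) without library 2. The fitted log2 fold change of 6.31 ± 0.63 (adjusted p = 4.42e-05) depends on the prior count, given so few counts in the PBS group. In slice microglia in medium, Ikbke had the median of 30.5 CPM given above. The slice table holds counts and the adult microglia table expected counts, made and scaled separately. The difference in Ikbke level between them was therefore not tested, and whether the estimation bears on the low PBS level was not tested either. Tbk1, its relative, measured 117, 115.5, 109 and 114 CPM with PBS and 119.9, 114, 108 and 113 CPM with LPS. Its log2 difference was -0.0030 ± 0.06, with a 95% interval of -0.14 to 0.13, and -0.0031 ± 0.06 without library 2.

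Mavs and Trim25 differed by less than the fold limit. Mavs measured 105, 106, 106 and 100.4 CPM with PBS and 147, 129.5, 139.6 and 144 CPM with LPS, a log2 difference of 0.42 ± 0.06 (adjusted p = 0.00017), with no overlap, and 0.46 ± 0.06 without library 2. Trim25 measured 40.1, 37.7, 42.4 and 35.6 CPM with PBS and 54.8, 44.9, 51.5 and 62.9 CPM with LPS (0.46 ± 0.10, adjusted p = 0.0028), also with no overlap, and differed by 0.54 ± 0.09 without library 2. Cgas measured 33.0, 36.5, 35.3 and 36.9 CPM with PBS and 57.0, 47.2, 55.5 and 50.6 CPM with LPS. Its log2 difference of 0.57 ± 0.08 (1.48-fold, adjusted p = 0.00014) became 0.62 ± 0.08 (1.54-fold, adjusted p = 2.06e-05) without library 2, which is then a call, as it also was without LPS library 4 (0.59) or PBS library 4 (0.59). Tmem173 measured 734, 668, 655 and 642 CPM with PBS and 741, 803, 641 and 620.1 CPM with LPS. The groups overlapped, with a log2 difference of 0.06 ± 0.09 (95% interval -0.14 to 0.25), which was -0.01 ± 0.08 without library 2.

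**Figure D3:**
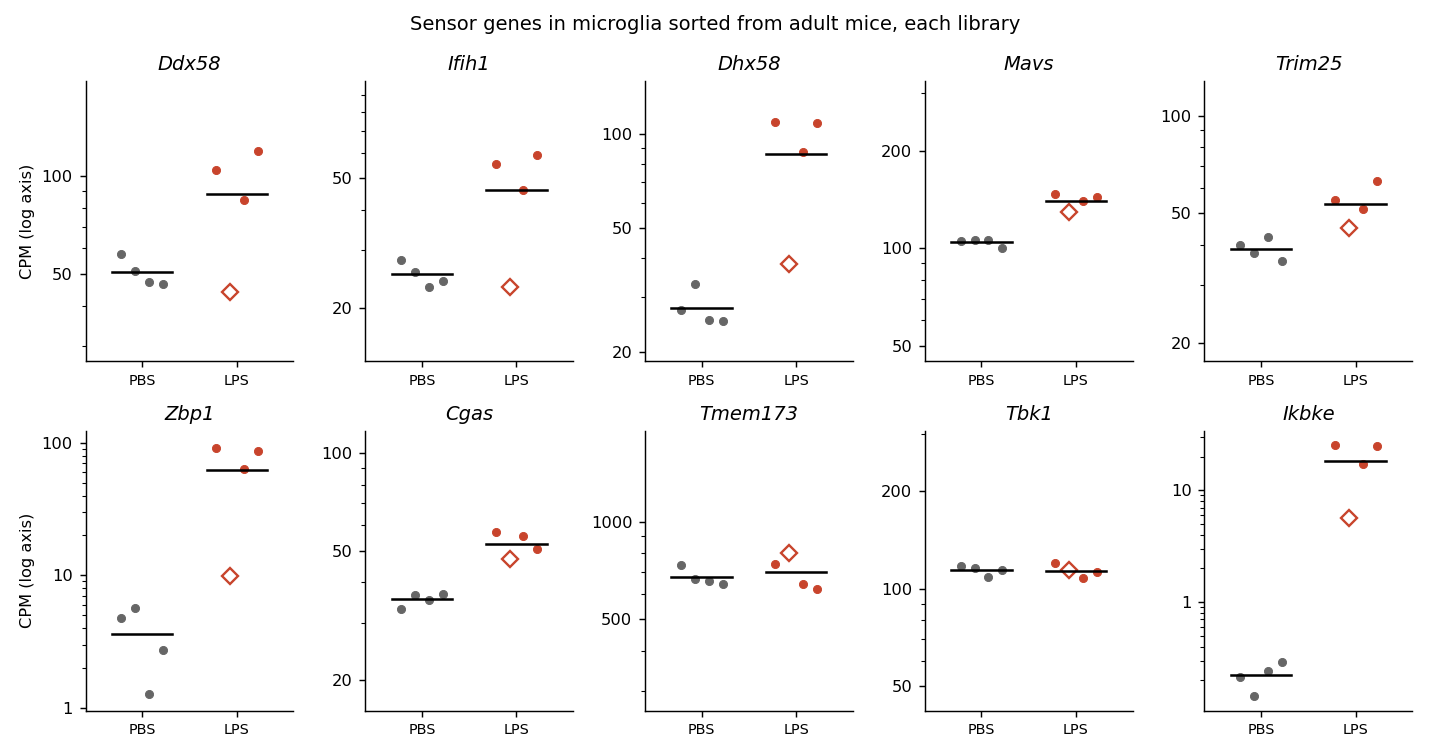
CPM of the 10 sensor genes on log axes in each library of adult microglia after PBS (grey) or LPS (red), with black lines at group means and LPS library 2 drawn as an open diamond. The diamond lies below every PBS point in Ddx58, within the PBS range in Ifih1 and between the groups in Zbp1 and Ikbke, while it is the highest point in Tmem173.

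The marker lists moved with LPS in adult microglia too. The 6 microglia markers summed to 23538.5 to 26721 CPM after LPS, below the PBS libraries, with none at 0. The monocyte and neutrophil markers summed to 23.3 to 45.3 CPM after PBS and 5.60 to 10.5 CPM after LPS, with Ly6g and Retnlg at 0 in all LPS libraries, and the border macrophage markers stood at 9.58 to 14.6 CPM after PBS and 23.7 to 36.0 CPM after LPS. The sums after PBS and after LPS were 254 to 280 CPM and 145 to 180.5 CPM for astrocyte markers, 28.9 to 36.3 CPM and 10.2 to 13.7 CPM for endothelial markers (Cldn5 at 0 in both groups), and 137 to 161 CPM and 97.8 to 120.3 CPM for oligodendrocyte markers. The groups did not overlap in any of these lists. Their part in the sensor genes was not tested.

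Of 62 tested pathway genes 16 rose and 1 fell with LPS in adult microglia, and 17 rose and 1 fell without library 2, Traf3 at 0.59 ± 0.11 being the added call; the values that follow include library 2. Of 6 feedback inhibitors 4 rose, among them Isg15 at 2.36 ± 0.41 and Nlrc5, an inhibitor of these pathways, at 1.89 ± 0.43. Irf9 at 0.77 ± 0.13 and Stat2 at 1.54 ± 0.25 were the 2 called of 6 genes of the interferon receptor and its complex. Of the 12 further sensors and cofactors 4 rose, among them Eif2ak2, the kinase PKR, at 1.45 ± 0.13 and G3bp1, a cofactor of cGAS and RIG-I, at 0.71 ± 0.08. Tank at 1.05 ± 0.09 and Irf7 at 2.58 ± 0.53 rose, and Nfkb1 at -0.94 ± 0.07 was the gene that fell. Adar at 0.99 ± 0.18 and Trex1, the exonuclease that clears cytosolic DNA, at 1.4 ± 0.25 rose, as did Nlrx1 at 1.10 ± 0.11 and Mlkl at 1.93 ± 0.41. Ifnb1 had 4 counts over the LPS group and 3 over the PBS group.

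LPS against untreated in brain tissue asked how the whole tissue responds. LPS raised 6 of the 9 sensor genes that could be tested (the 3 RNA receptors, Trim25, Zbp1 and Tmem173), where 2.63% of the 15083 genes tested were higher, and lowered 0 of them, where 0.55% were lower. At an unadjusted p under 0.05 edgeR placed the same number, 6, higher and 0 lower, and neither DESeq2 nor limma-voom called one lower. All genes were not counted at that unadjusted threshold. With no fold limit, 914 genes were called higher and 619 lower at an adjusted p under 0.05 in edgeR. Ikbke was listed at 0 in all 8 libraries and was not tested. Counts were low in this table, between 19 and 43 per library for Dhx58 and between 8 and 29 for Cgas.

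Ddx58 measured 6.03, 5.25, 7.35 and 5.96 CPM in untreated and 13.8, 14.6, 14.7 and 14.8 CPM in LPS tissue (log2 fold change 1.24 ± 0.12, adjusted p = 6.62e-06). Ifih1 measured 4.93, 4.66, 5.48 and 5.43 CPM against 8.97, 10.7, 9.91 and 8.99 CPM (0.91 ± 0.13, adjusted p = 0.00031). Dhx58 measured 1.91, 2.04, 2.17 and 2.19 CPM against 3.69, 5.07, 4.11 and 3.71 CPM (0.99 ± 0.20, adjusted p = 0.0040). In none of the 3 receptor genes did the groups overlap, and the share of all genes without overlap was not counted.

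Zbp1 was close to the limit of detection in untreated tissue, at 2, 1, 3 and 2 counts, and had 38, 41, 50 and 39 counts after LPS (4.01, 4.83, 6.04 and 4.38 CPM). The ratio of the summed CPM was 23.6 with a 95% counting interval of 11.7 to 55.5, and the fitted log2 fold change was 4.48 ± 0.33 (adjusted p = 3.90e-07). As in adult microglia after LPS, no library of the treated group overlapped a control library.

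Trim25 measured 8.04, 9.52, 9.93 and 7.84 CPM in untreated and 17.5, 16.2, 13.9 and 15.2 CPM in LPS tissue and rose by 0.83 ± 0.11 on the log2 scale (adjusted p = 0.00022). Tmem173 measured 3.02, 2.92, 3.62 and 3.34 CPM against 6.54, 7.43, 4.59 and 7.30 CPM and rose by 1.00 ± 0.18 (adjusted p = 0.0020). Neither gene had overlapping groups. Mavs measured 9.15, 9.72, 9.21 and 10.2 CPM against 10.3, 10.1, 12.2 and 12.1 CPM, a log2 difference of 0.22 ± 0.11 (95% interval -0.01 to 0.46). Cgas measured 1.81, 1.26, 1.55 and 1.25 CPM against 2.32, 0.94, 3.51 and 2.7 CPM. LPS library 2 was the lowest of all 8 in Cgas with 8 counts, and the log2 difference of 0.68 ± 0.33 (adjusted p = 0.22) became 0.94 (adjusted p = 0.042) without that library. Tbk1 measured 49.6, 47.9, 50.6 and 47.9 CPM against 47.8, 48.0, 58.5 and 51.6 CPM, with a log2 difference of 0.07 ± 0.07 (95% interval -0.07 to 0.21).

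**Figure D4:**
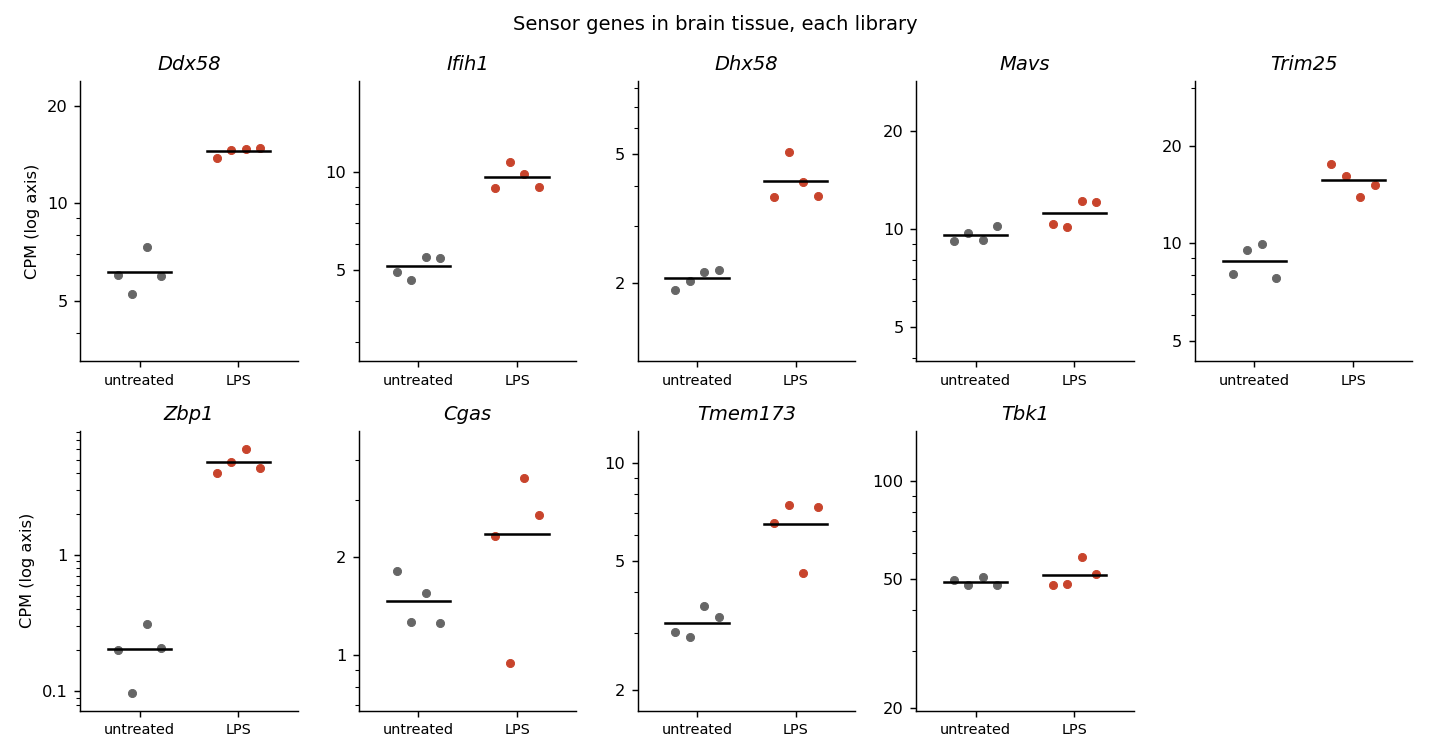
CPM on log axes of the 9 sensor genes with counts in each library of brain tissue from untreated (grey) and LPS-injected (red) mice, with black lines at group means. The groups lie apart in Ddx58, Ifih1, Dhx58, Trim25, Zbp1 and Tmem173 and overlap in Mavs, Cgas and Tbk1.

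Markers of the cell types in the tissue moved beside these genes. The 5 endothelial markers summed to 154 to 166 CPM in untreated and 233 to 269 CPM in LPS tissue with none at 0, the astrocyte markers to 1042 to 1108 CPM and 1138 to 1382 CPM with none at 0, and the monocyte and neutrophil markers (6 of 7 listed) to 1.94 to 2.82 CPM and 4.47 to 8.65 CPM. The border macrophage markers, with Mrc1 at 0, summed to 4.28 to 7.04 CPM and 8.58 to 11.8 CPM, and the oligodendrocyte markers to 5835 to 6399.7 CPM and 4497 to 5305 CPM, while the microglia markers overlapped at 201 to 231 CPM and 159 to 271 CPM. The groups overlapped in the microglia list and did not in the other 5 lists given. Which cells carried the changed RNA was not tested.

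Of 57 tested pathway genes 8 rose and 0 fell in brain tissue. At an unadjusted p under 0.05 in edgeR, 20 lay above and 3 below the untreated level, and all genes were not counted at that threshold. Irf7, the factor that amplifies the interferon response, rose by 3.14 ± 0.16, and of 7 feedback inhibitors 3 rose, among them Isg15 at 2.05 ± 0.18 and Usp18 at 2.32 ± 0.25. Irf9 at 1.06 ± 0.10 was the 1 called of 6 genes of the interferon receptor and its complex. Eif2ak2 at 1.08 ± 0.14, Zc3hav1, an antiviral RNA-binding protein, at 0.78 ± 0.18 and Casp8, a caspase bound by the ZBP1 complex, at 0.80 ± 0.22 rose too. The type I interferon ligand genes had 1 count at most in either group.

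The difference between the LPS effects in adult microglia and in brain tissue was tested in 1 fit to both tables for the 9 genes with counts in both tables. Only Tmem173 was called, lower by 0.96 on the log2 scale (SE 0.20, adjusted p = 0.00097), where 9.1% of 16676 genes were called higher and 10.6% lower. Its level was 675 ± 41.0 CPM with PBS and 701 ± 86.0 CPM with LPS in microglia (SD, n = 4) and 3.22 ± 0.32 CPM and 6.47 ± 1.31 CPM in untreated and LPS tissue (SD, n = 4). limma-voom did not call Tmem173 (adjusted p = 0.068). For the 0 genes higher, edgeR gave 0 at an unadjusted p under 0.05, and DESeq2 and limma-voom called none. Without microglia LPS library 2, Dhx58 was also called, higher in microglia by 0.88 ± 0.23 (adjusted p = 0.0052), and Tmem173 was at -1.04 ± 0.19. For the remaining genes the log2 differences between the effects were -0.44 ± 0.36 for Ddx58, -0.06 ± 0.32 for Ifih1, -0.38 ± 0.16 for Trim25, 0.19 ± 0.11 for Mavs, -0.12 ± 0.30 for Cgas and -0.08 ± 0.09 for Tbk1. That of Zbp1, -0.40 ± 2.02, had too wide an error to be informative, and that of Ikbke could not be estimated. Of 61 pathway genes 5 were called higher in microglia and 3 lower: Nlrx1 at 1.24 ± 0.15, Stat2 at 1.13 ± 0.28, Tank at 1.02 ± 0.12, Adar at 0.95 ± 0.19 and G3bp1 at 0.69 ± 0.10 were higher, and Nfkb1 at -1.26 ± 0.12, Casp8 at -1.23 ± 0.18 and Ripk3 at -1.53 ± 0.60 lower. The 2 tables differ in library kit, read layout and control injection, and these cannot be told apart from tissue here.

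**Figure D5:**
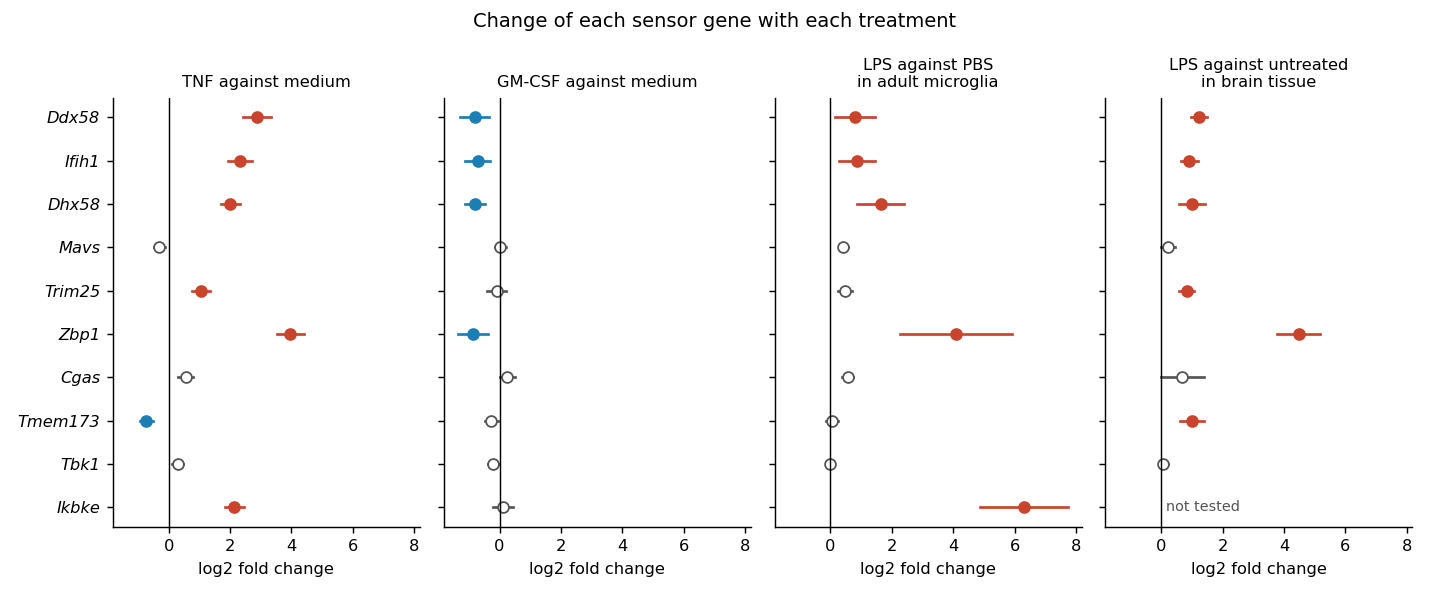
Log2 fold change of each sensor gene with 95% interval in the 4 treatments against their controls; filled red points were called higher, filled blue points lower and open grey points were not called. Ddx58, Ifih1, Dhx58 and Zbp1 carry filled points in all 4 columns, to the left only with GM-CSF, while Mavs and Tbk1 are open throughout.

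Set side by side, Ddx58, Ifih1, Dhx58 and Zbp1 were called in each of the 4 treatments against control, lower with GM-CSF and higher with TNF and with LPS in both settings. The calls of Ddx58 and Ifih1 in adult microglia, and of all 4 genes with GM-CSF, did not hold in every subset or left-out library. Mavs, Cgas and Tbk1 were called in none in the main test, with log2 differences of -0.30 to 0.42 for Mavs, 0.25 to 0.68 for Cgas and -0.21 to 0.29 for Tbk1. Cgas lay just under the fold limit with TNF and with LPS in adult microglia. It was called with TNF in title codes 2A and 2B. With LPS it was called when certain single libraries were left out, in adult microglia and in brain tissue. Trim25 was called with TNF and in brain tissue after LPS, Ikbke with TNF and in adult microglia after LPS, and Tmem173 lower with TNF and higher in brain tissue after LPS.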

How the data were processed

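RNA-seq was measured in 45 samples of 7 groups. The deposited slice table holds raw counts per gene, which the authors made from reads aligned to mm10 (per the processing notes: STAR 2.7.0a and featureCounts of Subread 1.6.4). The deposited tables of adult microglia and brain tissue hold expected counts, which the authors estimated with a tool that is not given in the sources used here. The expected counts were rounded to whole numbers. Rows that name no gene (92 in the brain table, all at 0) were left out.

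Genes passing filterByExpr (minimum count 10, minimum total 15) were tested with edgeR 4.0.16 (TMM scaling, robust quasi-likelihood F test, R 4.3.3), within each table, with all 3 slice groups in 1 fit. Calls needed a Benjamini-Hochberg adjusted p under 0.05 and a fold over 1.5. SEs are the fitted coefficient divided by the square root of F. The scripts were tested on simulated data. The members and lists were chosen with earlier results of these data known. A microglia marker and a pathway gene of those lists are not reported here and were left out of the list counts and sums. All 10 sensor genes are named, and of each pathway list and comparison up to 2 called genes with the smallest adjusted p in each direction. Slices are not tied to animals in the labels, so p-values measure the spread between these samples, which may be technical. The paper describes the slice data as pooled from 4 independent experiments, and the main fit held no term for them. Whether the title codes mark these experiments is not given. With the title code as a block, 7 sensor genes were called for TNF, 4 for GM-CSF and 6 for TNF against GM-CSF. Counting intervals cover counting error only. Overlap between the libraries of compared groups was read only for the sensor genes and marker lists. The share of all genes whose groups do not overlap was not counted. Total counts ranged from 5973364 to 14216034 per library, and the lowest genes rest on few counts. No 2 libraries held identical values. Alternatives were DESeq2 1.42.0, limma-voom 3.58.1, other scalings and filters, title-code subsets, blocks and left-out libraries.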

Additional observations from a re-analysis of the deposited data

Results flagged for a closer look

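Among 58 combinations of sensor gene and group that could be checked for a library far from the others, 3 stood out, and chance alone flags about 1 in 20 groups. The TNF group, with 11 libraries, was larger than the limits used allow and was not checked. Dhx58 was 50.6 CPM in medium library 5, where the next highest had 37.4 CPM. Ikbke was 59.0 CPM in medium library 8 (next 39.0 CPM) and 59.1 CPM in GM-CSF library 7 (next 43.3 CPM). The effect of LPS on Tmem173 differed between adult microglia and brain tissue by -0.96 on the log2 scale in a test of the difference itself (edgeR, adjusted p = 0.00097). In that test 10.6% of all 16676 genes were called lower, and limma-voom did not call Tmem173. Library kit, read layout and control injection cannot be told apart from tissue in this difference.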

How the results depend on the processing

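No log2 fold change of a called sensor gene turned its direction under any setting run. With TNF against medium, none of 130 gene and setting values lost a call. With no fold limit, genes called numbered 4476 for TNF against medium, 2892 for GM-CSF against medium, 3486 for TNF against GM-CSF, 6703 for LPS in adult microglia, 1533 in brain tissue and 5135 for the difference in LPS effects, and sensor genes called were 10 for TNF against GM-CSF and 8 for LPS in adult microglia. With GM-CSF, title codes 1A and 1B alone gave 1 sensor gene, and 2A and 2B alone 2 sensor genes and 785 genes, with fewer samples. With no low-count filter, 3 sensor genes were called in adult microglia (Ddx58 adjusted p = 0.13, Ifih1 0.089). A stricter filter of 50 counts in brain tissue left 288 genes and 3 sensor genes, with fewer genes tested. limma-voom called 0 sensor genes in the difference of LPS effects, with 1 at an unadjusted p under 0.05. Leaving out 1 library gave 3 to 6 sensor genes in adult microglia and 1 to 2 in the difference of LPS effects. Correlations of deviations between samples with the same replicate number ran from -0.08 to 0.18. These numbers do not follow the numbering in the slice titles, so a replicate block mixes title codes. Pairing by title number was not tested. With the replicate block, sensor genes called were 7 for TNF, 4 for GM-CSF, 6 for TNF against GM-CSF, 4 in adult microglia (Ddx58 0.73, adjusted p = 0.096), 6 in brain tissue and 1 for the difference, and 8 of 27 slice pairs correlated above 0.1. Leaving out GM-CSF library 4 or medium library 5, chosen after seeing the data, kept 4 calls with GM-CSF.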
